A study of Mus musculus with 6 samples.

Results

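The lysosome is the acidic compartment in which cells digest protein, sugar chains and lipid. Its hydrolases are made in the endoplasmic reticulum and sorted to it, mostly by a mannose 6-phosphate tag, and they work at the low pH that the vacuolar ATPase (V-ATPase), a rotary proton pump, keeps up. The pump has a membrane sector, V0, through which protons pass, and a cytosolic sector, V1, which splits ATP. The transcription factors TFEB, TFE3 and MITF switch on many of these genes when nutrients are short, by binding sites built around the E-box CACGTG, and tumour cells are known to lean on lysosomes when starved.

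A set of 48 lysosomal genes was taken by name from the deposited mouse gene table, and all 48 were found among its 56691 gene identifiers. It holds 21 hydrolases, 4 soluble cofactors of hydrolases and lipid transfer, 7 membrane proteins, 13 V-ATPase genes and 3 transcription factors. All 48 passed the filter on low counts, with 1163 to 206105 estimated counts per gene and library.

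RNA was sequenced in 2 groups of 3 mouse libraries. CTM was circulating tumour micro-emboli, clumps of tumour cells recovered from the blood of mice with lung metastases of breast cancer by a chip that traps clusters. 4T1 was the cultured mouse mammary carcinoma line of that name, from low adherence cultures per the titles, kept in DMEM with fetal bovine serum, penicillin and streptomycin. The labels name no genotype, treatment, time or age for either group, and do not say whether libraries came from separate mice or cultures, so each p-value reflects variation among these libraries alone, and that variation may be technical. Growth in the animal, passage through blood and capture all differ between the groups and cannot be told apart. Nor can fewer cells of a type and less RNA per cell.

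Libraries held 69178212 to 71595766 estimated counts in CTM and 69640898 to 70703739 in 4T1. Within each group, replicates 2 and 3 were much closer to each other than to replicate 1. On counts divided by 4 the mean chi-square per gene was 4.52 between CTM replicates 2 and 3 against 26.0 to 26.1 for the other CTM pairs, and 3.32 between 4T1 replicates 2 and 3 against 73.4 to 75.3 for the other 4T1 pairs. The labels do not say whether replicates 2 and 3 of a group are separate samples. If they were repeats of 1 sample, each group would hold 2 samples, and the SDs and p-values over 3 libraries may be too small, which was not tested. 4T1 replicate 1 stood farthest apart. It is shown separately where values of each library are printed, while means with SD and ranges include it. The keratin gene Krt18, a marker of carcinoma cells, was at 960 to 1091 CPM (counts scaled to a common library size after TMM normalisation) in CTM, against 839 to 950 in 4T1, while Epcam, another epithelial marker, stayed below 0.7 in every library. Krt18 did not pass the test. Of 11 epithelial markers tested 1 was higher in CTM and 4 were lower, against 14.2% and 13.7% of all genes tested. Their median log2 fold change was -0.45.

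Promoter sequence was looked up for the 48 genes to show the E-box that TFEB-type factors are known to bind. RefSeq windows on build GRCm38.p6 were matched for 40 of the 48, and the 250 bases before each start were searched on both strands for CACGTG, which reads the same on both. It was present for 10 of 40 members (25.0%), against 1042 of the 10816 tested genes with a window (9.63%). The longer form TCACGTGA, which contains it, was present for 5 of 40 members (12.5%) against 188 tested genes (1.74%). A match is a description of these letters and not a shown binding site. The following stretches are given because their genes carry the results below: 2 hydrolases and 2 pump genes that rose in CTM, a hydrolase with a small difference and Lamp1, which has the most E-boxes of the 40 members searched but hardly differed in mean between the groups. Each runs from 20 bases before the first to 20 bases after the last CACGTG, or to the start. Capitals mark each CACGTG, with its flanking T and A where the longer form is complete.
Gla, chrX:134601174-134601252, minus strand, 247 to 169 bases before the start: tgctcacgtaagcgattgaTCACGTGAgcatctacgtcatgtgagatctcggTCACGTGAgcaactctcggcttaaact
Gaa, chr11:119267803-119267848, plus strand, 160 to 115 bases before the start: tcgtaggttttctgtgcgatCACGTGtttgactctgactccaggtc
Atp6v0b, chr4:117887330-117887385, minus strand, 56 to 1 bases before the start: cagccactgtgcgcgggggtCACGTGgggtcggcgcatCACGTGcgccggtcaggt
Atp6v1a, chr16:44139365-44139410, minus strand, 151 to 106 bases before the start: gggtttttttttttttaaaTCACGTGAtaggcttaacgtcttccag
Glb1, chr9:114401010-114401055, plus strand, 68 to 23 bases before the start: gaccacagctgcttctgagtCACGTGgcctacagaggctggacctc
Lamp1, chr8:13159080-13159160, plus strand, 81 to 1 bases before the start: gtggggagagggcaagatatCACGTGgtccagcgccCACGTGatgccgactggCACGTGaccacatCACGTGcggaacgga

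Most of the lysosomal genes had more transcript in CTM than in 4T1 by their means, 38 of 48, and these included every pump gene and 14 of the 21 hydrolases. Of the 48 genes 25 rose, 1 fell and 22 did not pass the test (edgeR quasi-likelihood, adjusted p below 0.05 over all genes tested). Over all 16414 genes tested, 7943 had a positive log2 fold change, 14.2% rose and 13.7% fell. The median log2 fold change was 0.56 for the 48 genes and -0.03 for all genes tested. In 30 members all 3 CTM libraries lay above all 3 4T1 libraries, and in 2 they lay below, against 24.8% and 23.5% of all genes tested. Of the 48 genes 5 rose and 1 fell by at least 2-fold, against 4.5% and 5.07% of all genes tested. Counted among risers alone, that was 5 of 25 members and 738 of 2323 genes.

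These counts depended on how the replicates were used. Without 4T1 replicate 1, 37 members rose and 3 fell, while over all genes 19.7% rose and 19.7% fell. Without 4T1 replicate 2, 17 members rose, and without 4T1 replicate 3, 18 rose, against 8.78% and 9.18% of all genes. Scaling by library totals alone moved the median of all genes to -0.11, and 24 members rose, against 11.6% of all genes. Where the mean of replicates 2 and 3 stood for 1 sample, each group had 2 samples, and 276 genes in all were higher and 200 lower. In that fit 3 members rose, Npc2, Lamp2 and Atp6v1b2, and Gusb fell.

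**Figure D1:**
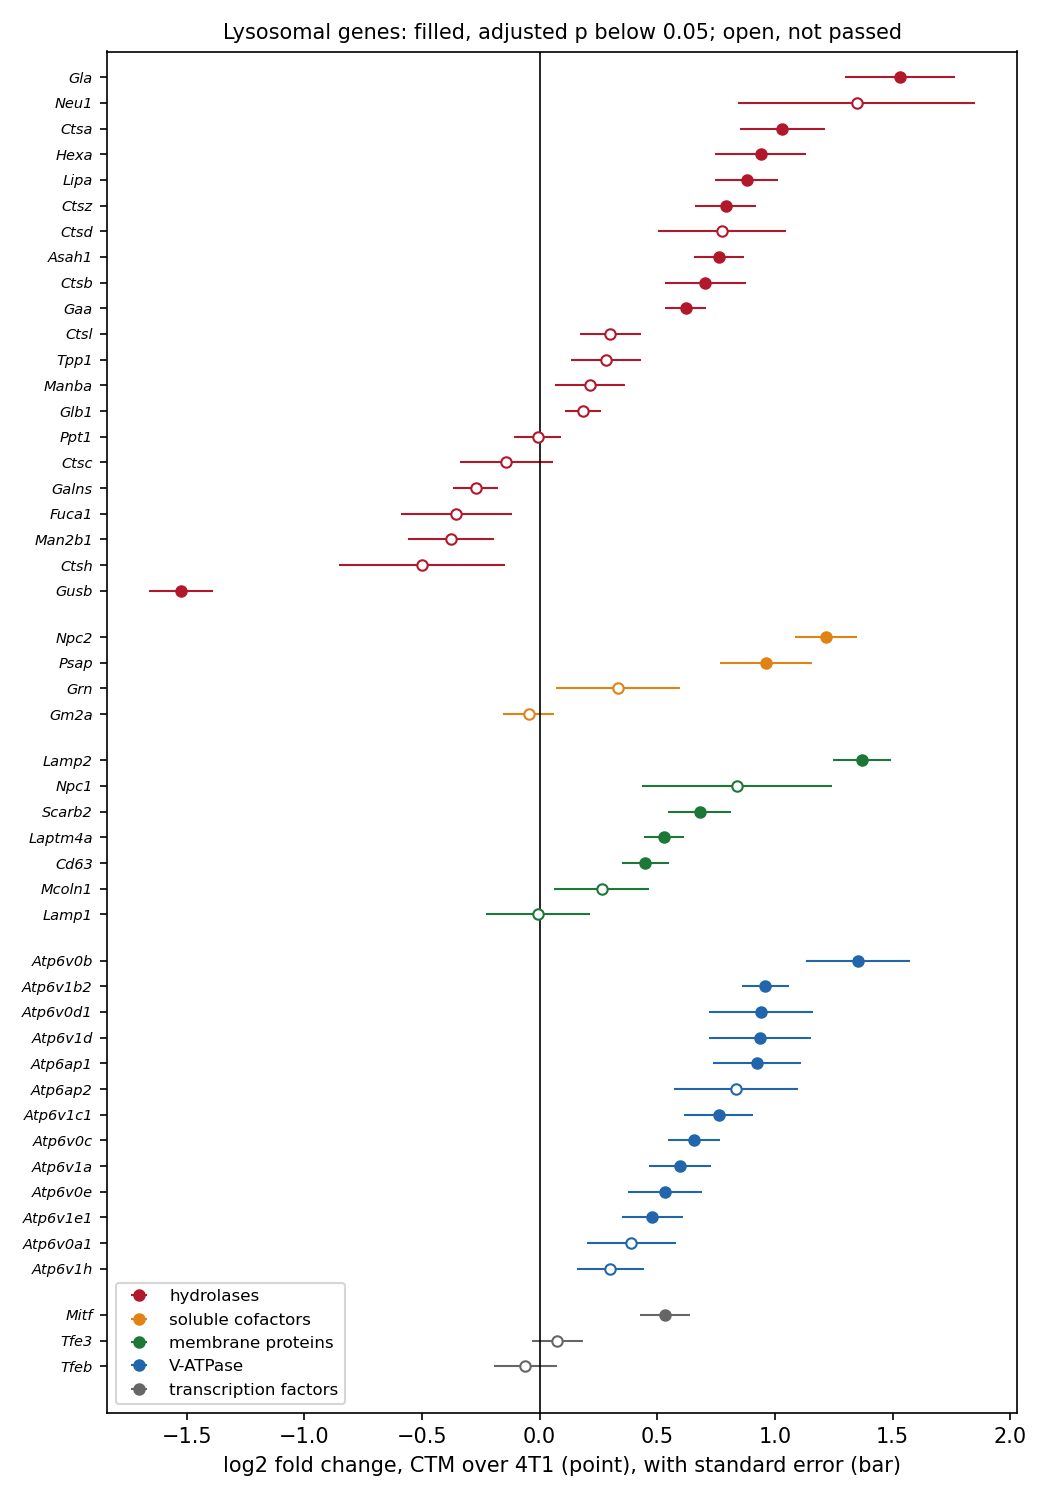
Log2 fold change of CTM over 4T1 for each of the 48 lysosomal genes, with its standard error as a bar, grouped by role; filled points passed at an adjusted p below 0.05 and open points did not. All 13 V-ATPase genes lie right of 0, between 0.30 and 1.35, while the 21 hydrolases spread from -1.53 for Gusb to 1.53 for Gla.

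All 13 V-ATPase genes had a positive log2 fold change, 10 of them rose and the median was 0.76. None fell by edgeR, DESeq2 or limma voom, or at an unadjusted p below 0.05. At an unadjusted p below 0.05, 11 of the 13 were higher, Atp6ap2 being the one added. At that looser threshold 6691 of all 16414 genes tested passed, higher and lower together. The hydrolases were split, with 8 of 21 rising, 1 falling, 12 not passing and a median of 0.30. Their difference in median, -0.46, is a description of these genes and was not tested. Per library, the median V-ATPase level, centred on each gene's mean over the 6 libraries, was 0.63, 0.28 and 0.25 in CTM on the log2 scale and -0.10, -0.47 and -0.47 in 4T1 replicates 1, 2 and 3. For the hydrolases the same medians were 0.34, 0.20 and 0.16 in CTM and -0.17, -0.30 and -0.28 in 4T1. In both sets every CTM library had a higher median than every 4T1 library, with 4T1 replicate 1 closest to CTM. Without 4T1 replicate 1 the hydrolase count was 13 higher and 3 lower, against 19.7% and 19.7% of all genes. The V-ATPase count was 6 without CTM replicate 2, and 5 without 4T1 replicate 2 or 3. Over all genes 7.85%, 8.78% and 9.18% rose in those fits. The difference of the fold change medians was -0.30 without CTM replicate 1, -0.31 without 4T1 replicate 2 and -0.29 without 4T1 replicate 3.

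**Figure D2:**
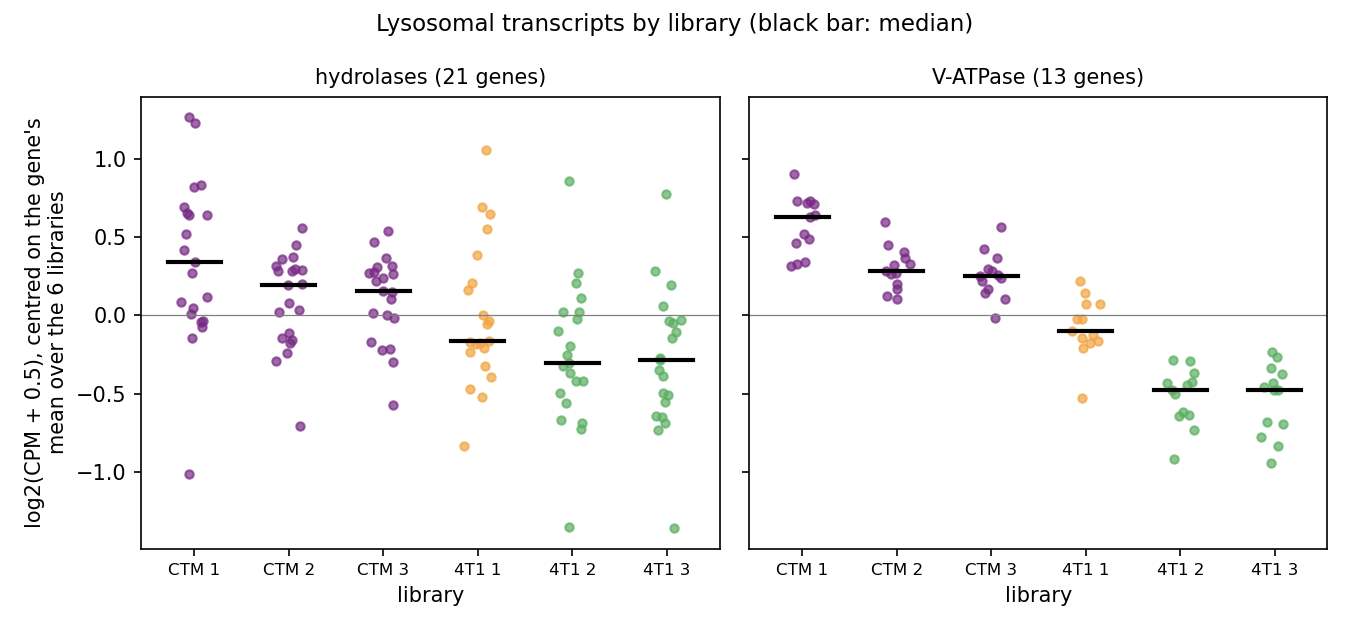
Log2(CPM + 0.5) of each hydrolase (left) and V-ATPase gene (right) in the 6 libraries, centred on the gene's own mean; points are genes, black bars are medians and 4T1 replicate 1 is orange. The V-ATPase points move together between libraries, with medians from 0.63 in CTM replicate 1 to -0.47 in 4T1 replicates 2 and 3. Those of 4T1 replicate 1 overlap with CTM points, and the hydrolase points overlap between all libraries.

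In the V0 sector 4 of 5 genes rose. Atp6v0b, a proteolipid subunit of the proton-carrying ring, was at 117, 94.4 and 92.1 CPM in CTM, against 53.7, 32.8 and 32.2 in 4T1. Every CTM value lay above every 4T1 value, and the 2.55-fold difference was the largest of the pump genes (log2 fold change 1.35 ± 0.22 SE, edgeR adjusted p = 0.00525). A pair of E-boxes lies just before its start (sequence above). Atp6v0c, the main ring subunit, was at 162, 142 and 140 CPM in CTM, against 105, 86.2 and 90.8 in 4T1, a 1.58-fold difference without overlap (edgeR adjusted p = 0.00584). It has 2 annotated processed pseudogenes, so part of its reads may be uncertain.

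Atp6v0d1, which links the ring to the central stalk, was at 141, 116 and 101 CPM in CTM, against 83.1, 54.0 and 49.3 in 4T1. Atp6v0e, a small membrane subunit, was at 89.8, 87.1 and 83.2 in CTM, against 75.4, 51.4 and 53.0 in 4T1. Neither pair of groups overlapped, at 1.92-fold and 1.45-fold, and both calls were lost on leaving out any 1 of CTM replicates 1 and 2 and 4T1 replicates 2 and 3. These calls were less firm, with edgeR adjusted p of 0.0192 and 0.0435, and Atp6v0e missed the threshold in 10 of 18 alternative analyses, among them library totals in place of TMM scaling. Atp6v0a1, the large subunit of the proton path, was at 90.6, 81.8 and 80.4 CPM in CTM, against 84.7, 56.1 and 52.1 in 4T1 and did not pass (edgeR adjusted p = 0.165). Its 4T1 replicate 1 value lay inside the CTM range, and without that library it passed at 1.55e-03 with a log2 fold change of 0.64.

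In the V1 sector 5 of 6 genes rose. Atp6v1b2, the ubiquitous form of the B subunit in the ATP-splitting head, was at 195, 161 and 168 CPM in CTM, against 86.7, 92.8 and 89.9 in 4T1. The groups lay far apart for their spread (mean 175 ± 18.1 CPM in CTM, against 89.8 ± 3.03 in 4T1, SD over 3 libraries each; edgeR adjusted p = 0.00125), and the call held in every alternative run. Atp6v1a, the catalytic A subunit, was at 265, 212 and 207 CPM in CTM, against 169, 137 and 146 in 4T1, a 1.51-fold difference (edgeR adjusted p = 0.0155). Atp6v1c1, a subunit needed to join the sectors, was at 171, 132 and 130 in CTM, against 97.8, 77.9 and 80.1 in 4T1. For both genes CTM and 4T1 did not overlap, and Atp6v1a lost its call without 4T1 replicate 2 or 3.

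Atp6v1d, a subunit of the turning stalk, was at 117, 93.7 and 86.9 CPM in CTM, against 69.6, 42.3 and 43.9 in 4T1. Atp6v1e1, part of the outer stalk, was at 78.9, 60.6 and 60.5 in CTM, against 50.7, 46.1 and 46.6 in 4T1. Both rose without overlap, by 1.91-fold and 1.39-fold, but both lost the call without CTM replicate 2 and without 4T1 replicate 2 or 3. Atp6v1h, a regulatory subunit, had a log2 fold change of 0.30 with overlapping groups and did not pass (edgeR adjusted p = 0.161). Of the accessory proteins, Atp6ap1, which takes part in assembly of the pump, was at 299, 230 and 236 CPM in CTM, against 171, 119 and 113 in 4T1, and rose 1.90-fold (edgeR adjusted p = 0.0111). Atp6ap2, the (pro)renin receptor, was at 185, 140 and 137 in CTM, against 124, 72.2 and 62.7 in 4T1. Its groups did not overlap, yet the test gave an edgeR adjusted p of 0.0549, and DESeq2 gave 0.0103.

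Among the 8 proteases 3 rose and 5 did not pass. Ctsa, a carboxypeptidase that also shields the sialidase Neu1 and the galactosidase Glb1 from breakdown, was at 490, 357 and 360 CPM in CTM, against 241, 173 and 177 in 4T1. It rose without overlap (mean 402 ± 76.3 CPM in CTM, against 197 ± 38.0 in 4T1, SD over 3 libraries each; 2.04-fold; edgeR adjusted p = 0.00673), though it shares 495 exon bases with Pltp and 324 with Neurl2 on the other strand, whose reads cannot be told apart without strand. Ctsz, a carboxypeptidase, was at 604, 476 and 456 CPM in CTM, against 270, 314 and 304 in 4T1, a 1.73-fold difference (edgeR adjusted p = 0.00518). Ctsb, a cysteine protease often raised in carcinomas, was at 1641, 1206 and 1228 in CTM, against 1015, 745 and 739 in 4T1. Its groups did not overlap and it rose 1.63-fold (edgeR adjusted p = 0.0225), a call lost in 6 alternatives, among them those without CTM replicate 1 and without 4T1 replicate 2 or 3. Ctsb shares 774 exon bases with Fdft1 on the other strand.

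Ctsd, the main aspartic protease of lysosomes, was at 899, 680 and 670 CPM in CTM, against 642, 337 and 335 in 4T1. 4T1 replicate 1 lay just under the CTM range, and the difference of 1.71-fold did not pass (edgeR adjusted p = 0.0740). Without that library the log2 fold change was 1.16 and it passed at 1.27e-03. Ctsl, a cysteine protease, was at 2874, 3046 and 2952 CPM in CTM, against 1912, 2689 and 2598 in 4T1, and did not pass at 1.23-fold (edgeR adjusted p = 0.129). Here 4T1 replicate 1 was the low library.

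Ctsh, an aminopeptidase, was at 56.6, 55.3 and 53.9 CPM in CTM, against 131, 52.5 and 51.7 in 4T1. The other 5 libraries were nearly level, and 4T1 replicate 1 was 2.31-fold above the highest of them, the only member for which it lay at least 2-fold outside all the others. Ctsc, which activates other proteases by trimming them, and Tpp1, a tripeptidyl peptidase, had overlapping groups and log2 fold changes of -0.14 and 0.28, and did not pass.

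The 10 glycosidases and sulfatases moved in both directions, with 3 rising and 1 falling. Gla, alpha-galactosidase A, the enzyme lacking in Fabry disease, was at 82.96, 46.9 and 47.6 CPM in CTM, against 19.0, 21.3 and 21.1 in 4T1. It had the largest rise of the 48 genes, 2.89-fold, and the groups did not overlap (log2 fold change 1.53 ± 0.23 SE, edgeR adjusted p = 0.00417). CTM replicate 1 was well above the other CTM libraries. Without that library the log2 fold change was the lowest of its alternatives, 1.16. Gaa, acid alpha-glucosidase, which breaks down glycogen, was at 471, 453 and 464 CPM in CTM, against 330, 288 and 284 in 4T1, and its groups were tight (mean 462 ± 9.32 CPM in CTM, against 301 ± 25.2 in 4T1, SD over 3 libraries each; edgeR adjusted p = 0.00328). Hexa, the alpha chain of hexosaminidase A, was at 140, 95.3 and 94.8 CPM in CTM, against 68.8, 53.0 and 49.9 in 4T1, a 1.92-fold difference (edgeR adjusted p = 0.0121).

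Gusb, beta-glucuronidase, which cuts glucuronic acid from glycosaminoglycans and is widely used as a reference gene in PCR, was the member that fell. It was at 28.5, 35.4 and 38.8 CPM in CTM, against 90.8, 105 and 99.4 in 4T1. The groups lay far apart (mean 34.2 ± 5.24 CPM in CTM, against 98.5 ± 7.23 in 4T1, SD over 3 libraries each), a 2.88-fold fall (edgeR adjusted p = 0.000824) that held in every alternative run. Galns, a sulfatase of keratan sulfate, was also below 4T1 in every CTM library, at 55.6, 52.5 and 52.1 CPM in CTM and 58.8, 67.6 and 67.1 in 4T1. It did not pass at 1.21-fold (edgeR adjusted p = 0.0729), and passed in DESeq2 at 0.0304.

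Neu1, the lysosomal sialidase, is described because its values drew attention and not by the naming rule. It was at 105, 65.9 and 65.1 CPM in CTM, against 58.5, 17.3 and 17.2 in 4T1. The 2.54-fold difference did not pass, since 4T1 replicate 1 lay close under CTM (edgeR adjusted p = 0.0888). Without it the log2 fold change was 2.19 and passed at 8.74e-04. Glb1, the galactosidase whose E-box is shown above, did not overlap between groups, at 119 to 121 CPM in CTM and 102 to 110 in 4T1, but differed by 1.14-fold and did not pass (edgeR adjusted p = 0.122). Man2b1, Manba and Fuca1, which remove mannose and fucose, had overlapping groups and log2 fold changes of -0.38, 0.21 and -0.35.

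**Figure D3:**
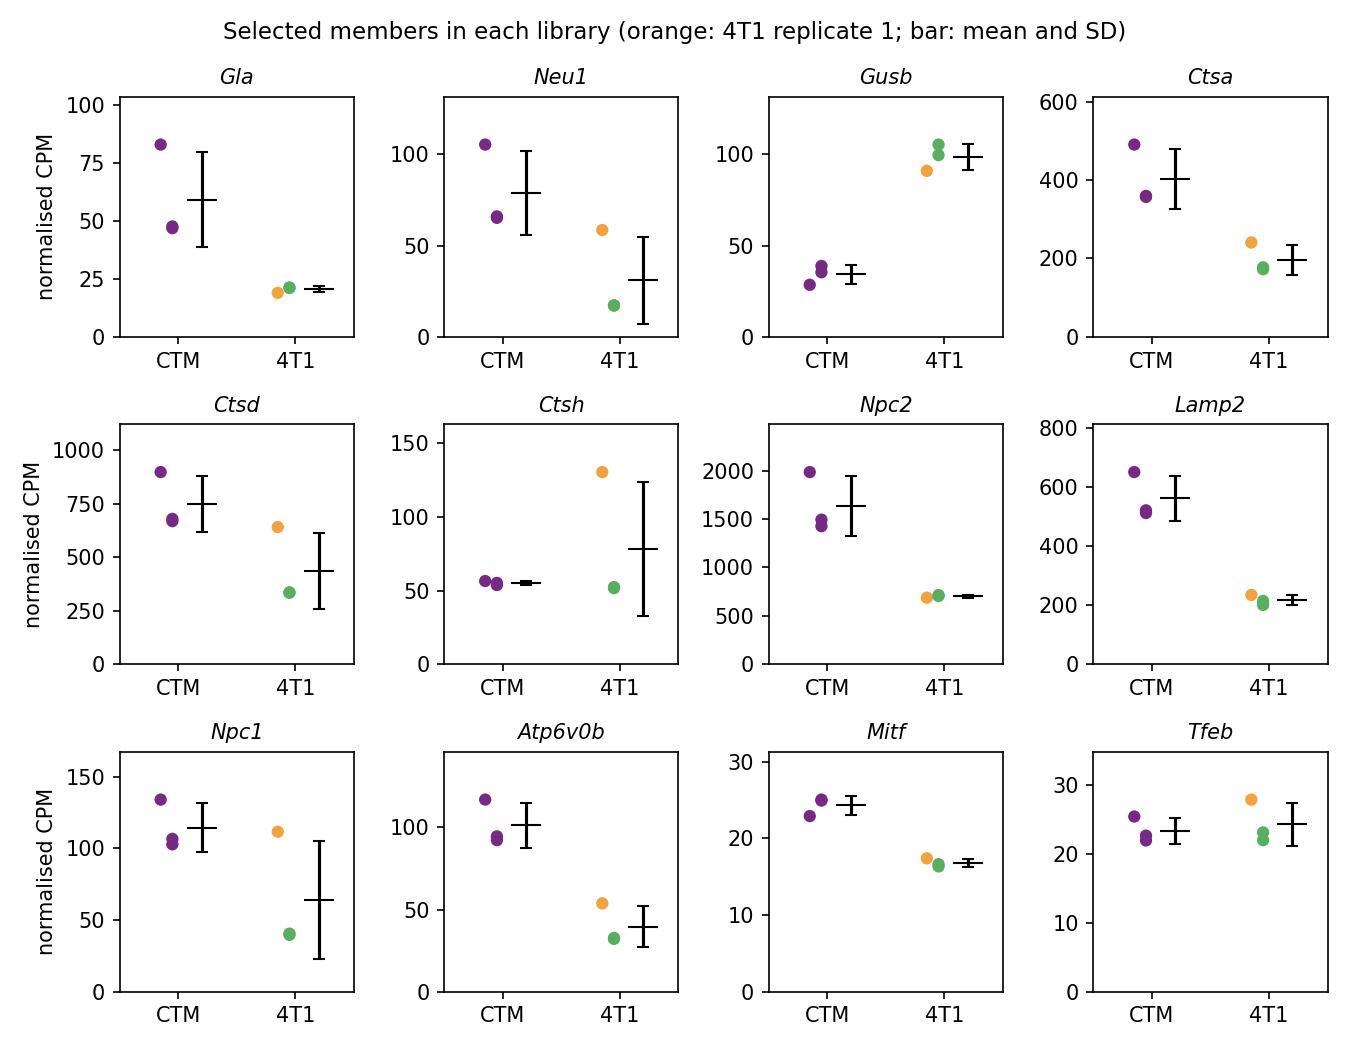
Normalised CPM of 12 lysosomal genes in each library, with mean and SD over 3 libraries per group beside the points and 4T1 replicate 1 in orange; every axis starts at 0. Gla, Lamp2 and Npc2 are separated in all libraries and Gusb in the other direction, while for Neu1, Ctsd and Npc1 4T1 replicate 1 lies near the CTM values, at 58.5, 642 and 112 CPM.

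Of the 3 lipid and thioester hydrolases 2 rose. Asah1, acid ceramidase, was at 374, 326 and 324 CPM in CTM, against 222, 196 and 186 in 4T1, a 1.70-fold difference (edgeR adjusted p = 0.00299). Lipa, which frees cholesterol and fatty acids from lipoprotein lipid, was at 57.1, 46.9 and 43.6 in CTM, against 28.8, 26.9 and 24.4 in 4T1, a 1.84-fold difference (edgeR adjusted p = 0.00409). Neither gene overlapped between the groups. Ppt1, which strips palmitate from proteins, was level, at 90.9, 95.7 and 93.5 CPM in CTM and 83.1, 101 and 97.6 in 4T1, with overlapping groups (edgeR adjusted p = 0.961). Ppt1 shares 129 exon bases on the other strand with the more abundant Cap1, at 26579 to 37859 counts per library.

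The soluble cofactors split evenly. Npc2, which hands cholesterol to the membrane protein Npc1, was at 1984, 1493 and 1426 CPM in CTM, against 688, 705 and 716 in 4T1. It rose 2.33-fold without overlap (log2 fold change 1.22 ± 0.13 SE, edgeR adjusted p = 0.00137), and the call held in every alternative. Psap, the precursor of the saposins that present sphingolipids to their hydrolases, was at 2138, 1476 and 1467 CPM in CTM, against 1065, 755 and 788 in 4T1, a 1.95-fold rise (edgeR adjusted p = 0.0111). Grn, progranulin, was at 1119, 726 and 727 in CTM, against 944, 538 and 559 in 4T1. Its groups overlapped through 4T1 replicate 1 and it did not pass (edgeR adjusted p = 0.391), though it passed in 4 of 18 alternative analyses. Gm2a, which lifts the ganglioside GM2 for hexosaminidase A, was level at 117, 102 and 101 CPM in CTM and 123, 104 and 104 in 4T1.

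Of the 7 membrane proteins 4 rose and 3 did not pass. The 2 abundant glycoproteins of the lysosomal membrane parted. Lamp2, also the receptor of chaperone-mediated autophagy in its A form, was at 651, 521 and 512 CPM in CTM, against 235, 215 and 201 in 4T1. It rose 2.59-fold without overlap (mean 562 ± 77.5 CPM in CTM, against 217 ± 17.1 in 4T1, SD over 3 libraries each; edgeR adjusted p = 0.000824) in every alternative run. Lamp1 was at 501, 397 and 406 CPM in CTM, against 600, 347 and 363 in 4T1. Its mean was 435 in CTM, against 437 in 4T1, with 4T1 replicate 1 the highest library (edgeR adjusted p = 0.986). Without both libraries numbered 1 its log2 fold change was 0.18 and passed at 6.98e-03. Lamp1 shares 249 exon bases with Grtp1 on the other strand.

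Laptm4a, a small lysosomal membrane protein, was at 448, 433 and 421 CPM in CTM, against 327, 289 and 287 in 4T1. Scarb2, the receptor that carries glucocerebrosidase to lysosomes, was at 60.9, 51.3 and 52.4 in CTM, against 29.3, 35.1 and 38.4 in 4T1. Cd63, a tetraspanin of late endosomes and exosomes, was at 782, 664 and 628 in CTM, against 520, 493 and 507 in 4T1. All 3 rose without overlap, by 1.44-fold, 1.6-fold and 1.37-fold (edgeR adjusted p = 0.00527, 0.0100 and 0.0163). Cd63 has an annotated pseudogene, and its call was lost in 4 alternatives, among them those without 4T1 replicate 2 or 3.

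Npc1, which moves cholesterol out of the lysosome, was at 134, 107 and 103 CPM in CTM, against 112, 40.6 and 39.8 in 4T1. 4T1 replicate 1 lay inside the CTM range and the gene did not pass (edgeR adjusted p = 0.164). Without it the log2 fold change was 1.51 and passed at 3.72e-04. Npc1 shares 511 exon bases with Rmc1 on the other strand, at 1804 to 2868 counts per library. Mcoln1, the calcium channel TRPML1, had overlapping groups and a log2 fold change of 0.26 and did not pass.

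Of the 3 factors known to drive these genes, Mitf rose and Tfeb and Tfe3 did not pass. Tfeb was at 25.5, 22.0 and 22.7 CPM in CTM, against 27.9, 22.0 and 23.2 in 4T1. Tfe3 was at 102, 102 and 101 in CTM, against 111, 90.7 and 88.3 in 4T1. Both overlapped between groups and neither passed (edgeR adjusted p = 0.774 and 0.640). For Tfe3 the overlap came through 4T1 replicate 1. Tfe3 passed in 3 of 18 alternative analyses, and its log2 fold change was at most 0.186 in any of them. Mitf, best known from melanocytes and osteoclasts, was at 22.9, 24.9 and 25.1 in CTM, against 17.4, 16.4 and 16.7 in 4T1, and rose 1.45-fold without overlap (edgeR adjusted p = 0.0113), a call lost without CTM replicate 2 and without 4T1 replicate 2. The activity of these factors is set largely by phosphorylation and entry into the nucleus, which RNA does not measure.

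Calls were counted with and without the E-box. Of the 10 with CACGTG 5 rose and 5 did not pass, with a median log2 fold change of 0.61. Of the 30 without it 16 rose, 1 fell and 13 did not pass, with a median of 0.53. Over all genes tested, with or without the E-box, 14.2% rose and 13.7% fell. Calls of non-member genes were not counted by E-box.

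Levels can be set side by side between genes only per length. With exon bases from GENCODE M21, an annotation other than the one behind the counts, Psap was at 617 CPM per kilobase in CTM and 317 in 4T1, the highest of the 48 genes in CTM. Ctsl followed it in CTM, at 456 CPM per kilobase in CTM and 370 in 4T1, and was the highest in 4T1. Ctsc stood at 3.55 CPM per kilobase in CTM and 3.92 in 4T1, and Mitf at 3.92 in CTM and 2.71 in 4T1. No spread is given for these scaled means.

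The same genes were compared within the libraries numbered 1 and within those numbered 2 and 3, which share no library. The median log2 difference of CTM over 4T1 was 0.65 in the libraries numbered 1 and 0.73 in those numbered 2 and 3 for the V-ATPase, with 13 of 13 positive in each. For the hydrolases it was 0.51 and 0.39, with 16 and 15 of 21 positive. For all 16414 genes tested it was -0.01 and 0.01, with 8060 and 8293 positive. Of the 48 members 42 had the same sign in both, among them all 26 called genes, whose calls rest on the same data. Ctsh had a log2 difference of -1.198 in the libraries numbered 1 and of 0.07 in the others. Gla had 2.10 and 1.14, and Neu1 0.84 and 1.90.

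**Figure D4:**
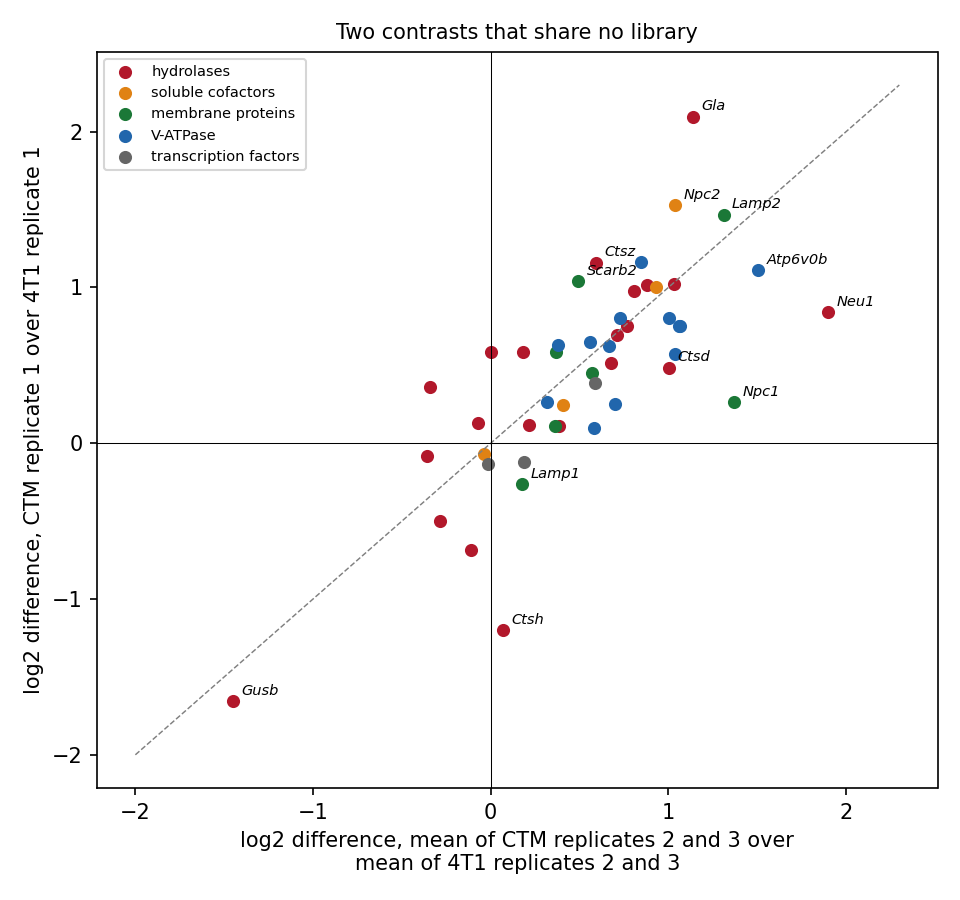
Log2 difference of CTM over 4T1 for each of the 48 genes in the libraries numbered 1 (vertical) and in the means of those numbered 2 and 3 (horizontal), on CPM + 0.5, coloured by role; the dashed line marks equal values. V-ATPase genes lie in the upper right, Gusb in the lower left at -1.65 and -1.45, and Ctsh falls below 0 in the libraries numbered 1.

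Replicate 1 had the highest value of its own group more often among these genes than among all genes. CTM replicate 1 was the highest CTM library for 41 of 48 members (85.4%) and for 39.7% of all genes tested. 4T1 replicate 1 was the highest 4T1 library for 37 of 48 (77.1%) and for 41.1% of all genes. For the V-ATPase both held at once in 12 of 13 genes (92.3%), for the hydrolases in 12 of 21 (57.1%), and over all genes in 19.1%. What sets the libraries numbered 1 apart is not given in the labels and was not tested. In 7 members 4T1 replicate 1 was the highest of all 6 libraries. Leaving it out gave 14 further calls, 7 of them hydrolases and 3 of them pump genes, Atp6v0a1, Atp6v1h and Atp6ap2, so that all 13 pump genes then rose. Calls over all genes also became more frequent, with 3323 higher and 3326 lower, against 2323 and 2252 with all libraries.

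Other lysosomal genes, outside the 48, were read from the same fit. Among 34 further genes tested from a list of lysosomal hydrolases that also holds other enzymes and glycoproteins, 14 rose and 3 fell. Those that fell were Sgsh, Prcp and Hgsnat, the last of which is not a hydrolase. The median log2 fold change of the list was 0.39. Of all genes tested 14.2% rose and 13.7% fell. Hyal1, a hyaluronidase, averaged 8.75 ± 1.11 CPM in CTM and 1.90 ± 0.077 in 4T1, and Creg1, a lysosomal glycoprotein, 60.2 ± 1.56 in CTM, against 27.5 ± 1.91 in 4T1 (± SD over 3 libraries each; edgeR adjusted p = 0.000689 and 0.000745). Sgsh and Hgsnat act, like Gusb, in the breakdown of heparan sulfate, while Naglu and Idua, of the same pathway, rose. Those 4 genes were singled out after their values were seen.

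Among 26 further membrane proteins tested 9 rose, against 14.2% of all genes tested, and 1 fell, against 13.7%. The gene that fell was Tpcn1, a cation channel of endolysosomes (136 ± 13.7 CPM in CTM, against 216 ± 7.07 in 4T1, SD over 3 libraries each; edgeR adjusted p = 0.00379). Cd68, a lysosomal glycoprotein used as a macrophage marker, was at 351, 155 and 147 CPM in CTM, against 23.5, 26.4 and 28.4 in 4T1, an 8.33-fold difference (edgeR adjusted p = 0.00164).

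Of 16 further pump genes tested 4 rose, Atp6v1g1, Atp6v1f, Tcirg1 and the assembly factor Ccdc115, and 2 fell, Atp6v0a4 and Atp6v0e2. Atp6v1g1 and Atp6v1f, subunits of V1 with no member among the 13, rose 1.74-fold and 1.67-fold, and Ccdc115 1.73-fold (edgeR adjusted p = 0.00450, 0.00816 and 0.00785). Both genes that fell were scarce. Atp6v0a4, a form of the a subunit used mainly in kidney, was at 0 in all 3 CTM libraries and at 2.24, 0.54 and 0.40 CPM in 4T1, and Atp6v0e2 was at 0.78, 0.87 and 1.12 CPM in CTM and 3.85, 2.10 and 1.45 in 4T1. The median of the 16 was 0.03, and of all genes tested 14.2% rose and 13.7% fell.

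In the list of mannose 6-phosphate tagging and sorting, 5 of 20 rose, Gnptg, Gga2, M6pr, Ap3b1 and Ap3d1. In the same list 2 fell, Ap1s1 and Ap3m1, and the median was 0.04. The shares of all genes tested, for this list and the next, were 14.2% rising and 13.7% falling. Gnptg, a subunit of the enzyme that makes the tag, was at 32.3 ± 0.75 CPM in CTM, against 16.1 ± 3.28 in 4T1 (± SD over 3 libraries each; edgeR adjusted p = 0.00481), Ap3b1 rose 1.41-fold (0.00973) and Ap1s1 fell 1.46-fold (0.00512). Of 22 tested genes of lysosome movement and fusion 9 rose and 13 did not pass, with a median of 0.45. These included Vps18, of the tethering complexes, Plekhm2, a link to kinesin, and Arl8b, the small GTPase that moves lysosomes outward, at 1.65-fold, 1.84-fold and 1.80-fold (edgeR adjusted p = 0.00322, 0.00428 and 0.00476).

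Genes that control TFEB and TFE3 moved in both directions, with 9 of 21 rising and Mtor, Ywhaz and Ppp3cb falling (median 0.35). Among all genes tested 14.2% rose and 13.7% fell. Fnip2 and Fnip1, partners of folliculin in the complex that lets mTORC1 reach TFEB and TFE3, were at 71.3 ± 8.86 and 163 ± 21.1 CPM in CTM, against 24.6 ± 1.65 and 62.4 ± 1.89 in 4T1 (± SD over 3 libraries each; edgeR adjusted p = 0.000629 and 0.000660). Tsc1, a brake on mTORC1, was at 98.6 ± 4.14 in CTM and 57.8 ± 2.56 in 4T1 (edgeR adjusted p = 0.00140). Named after their values were seen, Flcn, folliculin itself, rose 1.70-fold and Rragd, a RAG GTPase of the same pathway known as a TFEB target, rose 3.97-fold at a low level, 4.84 ± 0.77 CPM in CTM, against 1.22 ± 0.52 in 4T1 (± SD over 3 libraries each; edgeR adjusted p = 0.0103 and 0.00605).

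Macrophages are rich in lysosomes, so their markers were read beside these genes. To set beside the marker counts that follow, 14.2% of all genes tested rose and 13.7% fell. The 18 macrophage and monocyte genes summed to 31.1 to 34.9 CPM in CTM and to 31.6 to 82.2 in 4T1, the highest being 4T1 replicate 1, and of 13 tested 2 rose, Mrc1 and Mertk, and 1 fell, Siglec1. Cd68, counted with the membrane proteins above, is not in that sum. With it, an addition made after seeing the data, the sums were 382, 190 and 181 CPM in CTM, against 106, 58.1 and 59.9 in 4T1, so that every CTM library was higher. Cd14 was at 13.8, 18.9 and 15.8 CPM in CTM, against 32.3, 18.9 and 19.0 in 4T1, and did not pass. Mertk was at 11.6, 10.6 and 11.4 in CTM, against 3.74, 5.98 and 7.58 in 4T1. Csf1r was at 0.54, 0.07 and 0.17 CPM in CTM, against 32.6, 0.69 and 0.60 in 4T1. Adgre1, C1qa and Lyz2 stayed at or below 0.51 CPM in every library. Within that low range Adgre1 was at 0.06, 0.43 and 0.51 in CTM, against 0, 0 and 0.06 in 4T1. Neutrophil genes summed to 2660 to 2800 CPM in CTM and 1420 to 1650 in 4T1, of which Lcn2, also made by carcinoma cells, gave all but a small part and rose (edgeR adjusted p = 0.00121), and Ly6g, Mpo, Ngp and Retnlg were at 0 in all libraries. Pan-leukocyte genes summed to 207 to 258 in CTM and 314 to 424 in 4T1, with Lcp1, Itgb2, Ptpn6 and Arhgdib lower. Itgb2 was the largest part of that sum, at 103 to 123 CPM in CTM and 148 to 220 in 4T1. Of 11 tested 4 fell and 0 rose, though 6 had a positive log2 fold change. Among these 6, Ptprc was at 0.16, 1.08 and 1.34 CPM in CTM, against 0, 0.22 and 0.28 in 4T1 (edgeR adjusted p = 0.179). Platelet genes summed to 365 to 414 in CTM and 313 to 465 in 4T1, with Itga2b, Selp and the scarce Gp1ba higher and Nbeal2 lower, and endothelial genes to 136 to 172 in CTM and 141 to 187 in 4T1, with Cdh5 and Egfl7 lower.

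Markers of some other cells differed between libraries. Hepatocyte genes summed to 1020, 450 and 294 CPM in CTM replicates 1, 2 and 3 and to 1100 to 1210 in 4T1, with negative log2 fold changes for all 13 and a passing test for Cps1, which fell. B cell genes summed to 0.91, 8.16 and 9.52 in CTM and to 0.58 to 0.70 in 4T1. T and NK cell genes summed to 2.03 to 2.91 in CTM and 0.71 to 2.88 in 4T1, and erythroid genes to 3.96 to 4.48 in CTM and 2.68 to 9.5 in 4T1, and none of either passed. Epithelial genes summed to 1720 to 1840 in CTM and to 2690, 1910 and 1960 in 4T1, with Krt19 higher and Krt7, Krt8, Cdh1 and Cldn3 lower. In 4T1 replicate 1 Muc1 was at 380 CPM, against 2.39 to 3.67 in the other libraries. The part of these cells in the lysosomal results was not tested.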

How the data were processed

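Estimated counts were deposited by the authors as 1 table of whole numbers, with a row for each Ensembl gene and a column for each of 6 libraries, and column totals differ. Alignment tools listed in the submitters' processing notes are HISAT2 2.0.4 and Bowtie 0.12.2, beside edgeR and mouse build mm8. For the counting step, a tool and an annotation were not given in the sources used here. Per the labels' protocols a low input amplification kit was used, and use of strand is not given. Multiples of 4 are over-represented among low counts (4T1 replicate 1 has 956 genes at 4, 391 at 3 and 320 at 5), so counting error may be larger than the totals imply.

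Symbols were found for 52073 identifiers. filterByExpr kept 16414 genes. Quasi-likelihood testing in edgeR 4.0.16 (R 4.3.3; limma 3.58.1 and DESeq2 1.42.0 for alternatives) used all 6 libraries with TMM factors of 0.952 to 1.04, two-sided, with Benjamini-Hochberg adjustment over all genes and a threshold of 0.05. Normalised CPM are counts over TMM-scaled totals, log2 levels use CPM + 0.5, and SE is the log2 fold change over the square root of F. The fit was tested on simulated counts of 6 independent libraries, which cannot show how it behaves if replicates 2 and 3 are repeats of 1 sample. Members and lists were chosen with earlier results of these data known. Values in every library are given for up to 5 members of each role with the smallest p, for Tfeb, Tfe3, Mitf, Lamp1, Lamp2, Ctsd, Ctsb and Atp6v0c, and for members with 4T1 replicate 1 at least 2-fold outside the other libraries. Of each list of other lysosomal genes up to 3 with the smallest p are named, and of each marker list the genes that passed and reached 1 CPM. Some genes that this rule names are not reported here. Others were named after their values were seen. Alternatives were DESeq2, its size factors, library totals, limma voom, no filter, 5 CPM in 3 libraries, no mitochondrial or haemoglobin genes, counts divided by 4, a replicate block, a 1.2-fold minimum, each library left out, both libraries numbered 1 left out, and replicates 2 and 3 averaged. An exact permutation test of 3 against 3 cannot go below 0.1.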

Additional observations from a re-analysis of the deposited data

How the results depend on the processing

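No called member changed direction in 18 alternatives. Of the 26 calls 4 (Gusb, Npc2, Lamp2 and Atp6v1b2) held in all, and 14 more were lost solely where replicates 2 and 3 were averaged. That averaging gave 3 members higher, 0 hydrolases and 1 V-ATPase gene higher, and 8 and 0 other lysosomal genes higher and lower. Over all genes 1.66% were higher and 1.2% lower there. Without both libraries numbered 1 there were 38 members higher and 4 lower (13 and 4 for hydrolases) and 88 and 19 other lysosomal genes, with 25.6% and 26.2% of all genes called. limma voom gave 13 hydrolases higher, 4 members lower, all hydrolases, and 84 and 21 other lysosomal genes, with 27.5% and 28.2% of all genes. DESeq2, library totals and the 5 CPM filter each gave 2 members lower, both hydrolases, against 18.1%, 16.6% and 20.8% of all genes. Other lysosomal genes lower numbered 11, and 4 with no filter and 3 with a 1.2-fold minimum. Over all genes 13.7%, 6.34% and 8.91% were lower in these fits.

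Leaving out 1 library gave 17 to 37 members higher and 1 to 3 lower, 7 to 13 hydrolases higher and 1 to 3 lower, 5 to 13 V-ATPase genes higher, 31 to 74 other lysosomal genes higher and 3 to 16 lower, and a hydrolase minus V-ATPase difference of -0.53 to -0.29. Over all genes those fits gave 7.85% to 19.7% higher and 7.11% to 19.7% lower. The V-ATPase count was 6 without CTM replicate 2 and 5 without 4T1 replicate 2 or 3. The hydrolase count was 13 without 4T1 replicate 1.

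Uncalled genes that changed sign and passed were Lamp1 (0.18 without both libraries numbered 1), Dmxl1 (0.155 there) and Tmem106b (0.46 in limma voom, 0.495 without 4T1 replicate 1 and without both libraries numbered 1, and -0.27 to 0.495 over the libraries left out in turn). The replicate numbers are only numbers. Deviations of same-numbered libraries correlated at 0.12, 0.07 and 0.04, and CTM replicate 2 correlated best with 4T1 replicate 3, at 0.13. The replicate block gave 30 members higher and 2 lower, 10 hydrolases higher and 2 lower, 11 V-ATPase genes higher, and 50 and 7 other lysosomal genes. Over all genes 13.6% were higher and 12.6% lower in that fit. The causes were not tested.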
